A study of Rattus norvegicus with 12 samples.

Results

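The comparison set the ventricles of 3 rats taken 7 days after a sham operation against those of 3 rats taken 2 days after one, on 6 of the 12 arrays of a rat heart study. The members are the 3 arrays titled as 7 d sham (replicates 80, 81 and 82) and the 3 titled as 2 d sham (replicates 71, 72 and 74), and the replicate number is the one in each title. Sham rats had no occlusion of the left anterior descending coronary artery (LAD), the vessel of the front wall of the left ventricle. In the other 6 rats, called IR for ischaemia and reperfusion, the LAD was closed for 30 min and the ventricle was taken 2 or 7 days after it was reopened, with 3 rats per day. Each array held total RNA labelled with biotin from rat heart, and the labels give no strain, sex or age. Rats that were not operated on are not part of the comparison, so it shows how the operated heart differed between 2 days and 7 days and has no level from before surgery to set beside these. Separate replicate numbers stand for separate rats only as far as the titles go. The p-values of single genes set a difference against the spread between arrays of a group, estimated over all 12 arrays, IR included.

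Heart surgery injures tissue even when no vessel is closed. As background, such injury is followed by an acute phase response, in which complement proteins and other innate defence proteins are made, and later by repair, in which fibroblasts lay down collagens, fibronectin and periostin. Complement component C3 is the central protein of the complement cascade, and S100a8 and S100a9 together form calprotectin, an abundant protein of neutrophils and monocytes.

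The arrays gave a signal, a linear intensity per probe set (a group of short probes that reads 1 transcript), and all changes below are differences in the mean of log2(signal + offset), 7 d minus 2 d. The offset is the whole-number part of 195.45, the median over the 12 arrays of the 20th percentile of an array, and it makes changes of dim genes look smaller than they are. Of 10527 probe sets tested with limma, 8 passed at a Benjamini-Hochberg adjusted p under 0.05, which is 0.076% of those tested; 6 (0.057%) were higher and 2 (0.019%) lower at 7 d. By comparison, 992 (9.42%) had an unadjusted p under 0.05. Over 7720 genes, each read through its brightest probe set, 6 were called (0.0777%), 422 (5.47%) had a positive change at an unadjusted p under 0.05 and 326 (4.22%) a negative one. Of the same genes, 575 (7.45%) had all 3 of the 7 d signals above all 3 of the 2 d signals, and 559 (7.24%) had all 3 below. These shares over all genes are those to set beside the counts of each gene list below. The median change over all genes was -0.000686.

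The 3 sham arrays at 7 d were not alike. On the first principal component of the 6 sham arrays, replicates 80 and 81 lay at 19.3 and 22.4 and replicate 82 at -7.10, next to the 2 d arrays at -14.3 to -8.03. Replicate 82 correlated with the 2 d arrays at a mean r of 0.966 and with replicates 80 and 81 at 0.957 (Pearson, over probe sets). Without replicate 82 the number of probe sets called was 76 (0.722%), 65 of them higher (0.617%) and 11 lower (0.104%). Among genes it was 63 (0.816%), 52 higher (0.674%) and 11 lower (0.142%). Without replicate 80 it was 3, without replicate 81 it was 1, and without 1 of the 2 d arrays it was 1 to 5. Replicate 82 was singled out because it lies near the 2 d arrays, so leaving it out widens the difference between the days by construction. Calls gained in that fit, which rests on 2 arrays at 7 d, describe replicates 80 and 81 and are no independent support for a change. Of the genes followed here, 25 passed without replicate 82 and not with all arrays, and without replicate 80 or 81 instead 0 of these 25 passed in limma (adjusted p 0.125 to 0.734). In bulk tissue, fewer cells of a type and less RNA per cell cannot be told apart.

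**Figure D1:**
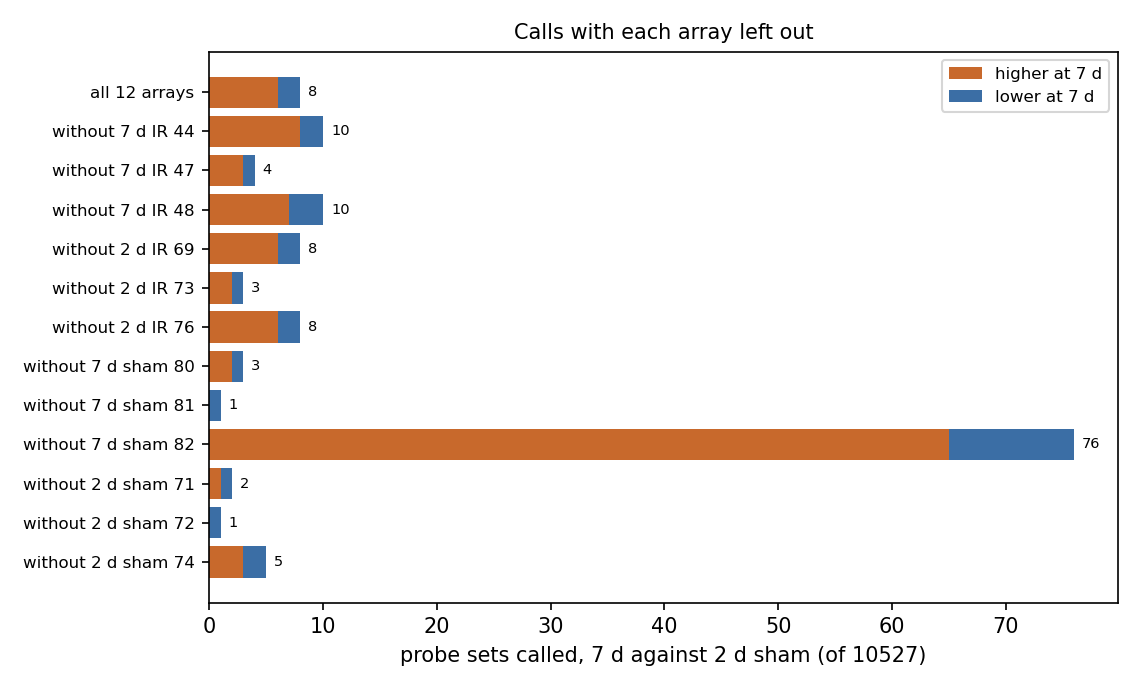
Number of probe sets called for 7 d against 2 d sham (horizontal axis, of 10527 tested) with all 12 arrays in the fit and with each array left out in turn; orange bars are higher at 7 d and blue bars lower, and the number at the end of a bar is their sum. The sum is 8 with all arrays, 76 without 7 d sham replicate 82 and 1 to 10 without any other array.

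Complement C3 rose most. Its signal was 454, 432 and 656 in the 2 d arrays (replicates 71, 72 and 74) and 3277, 9357 and 2999 in the 7 d arrays (replicates 80, 81 and 82). All 3 of the 7 d arrays lay above all of the 2 d arrays, with replicate 81 the highest. C3 was 6.74-fold higher at 7 d (log2 change 2.75, SE 0.40, limma adjusted p = 0.0216). The call was lost without 7 d replicate 81 (adjusted p = 0.0667), 2 d replicate 71 (0.102) or 2 d replicate 72 (0.116), with dim probe sets kept (0.0547) and without an intensity trend (0.0595), and its adjusted p ranged from 0.00224 to 0.116 over 23 alternatives.

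S100a9 had signals of 1219, 1250 and 2225 at 2 d and of 7699, 12064 and 4053 at 7 d. The groups did not overlap, and replicates 82 at 7 d and 74 at 2 d were nearest to each other. S100a9 rose 4.37-fold (2.13, SE 0.34, limma adjusted p = 0.0330). Its partner S100a8 had signals of 326, 215 and 438 at 2 d and of 1119, 2733 and 447 at 7 d. Replicate 82 was level with the highest 2 d array, and the change of S100a8 (1.40, SE 0.43, adjusted p = 0.289) passed only in the fit without replicate 82 (1.93, adjusted p = 0.0292) and in the fit that left out replicate 82 together with 2 d IR replicate 69 (adjusted p = 0.0372). Without 7 d replicate 80 or 81, or 2 d replicate 71 or 72, the call of S100a9 was lost (adjusted p 0.112 to 0.212), as it was without 7 d IR replicate 47 (0.0557) or 2 d IR replicate 73 (0.0606). On the 6 sham arrays alone S100a9 did not pass either (0.0594). Nor did it pass with dim probe sets kept (limma adjusted p = 0.0970), after quantile normalization (0.0512) or without an intensity trend (0.0781). Over 23 alternatives the adjusted p of S100a9 ranged from 0.00132 to 0.212.

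Dmbt1, which encodes a secreted scavenger receptor protein of mucosal defence, was dim in every sham array. Its signal was 65.2, 121 and 148 at 2 d and 575, 716 and 450 at 7 d, with no overlap. Dmbt1 was 2.52-fold higher at 7 d (1.33, SE 0.21, limma adjusted p = 0.0330), a size that the offset holds down. Its signal was above the filter for dim probe sets on 0 of the 2 d arrays, sham or IR, and on 2 sham and 3 IR arrays at 7 d. Dmbt1 was thus tested only through the 7 d arrays, where it is high, so its p and its place among the called genes are not independent of the filter; with dim probe sets kept, its adjusted p was 0.0547. C10h16orf89 had signals of 779, 518 and 377 at 2 d and of 1636, 1364 and 1346 at 7 d. The 7 d arrays lay close together and above all of the 2 d arrays, and C10h16orf89 rose 2.23-fold (1.16, SE 0.19, adjusted p = 0.0368). Both calls were lost without 7 d replicate 80 or 81 and without 2 d replicate 72 or 74, Dmbt1 also without 2 d replicate 71, and both without 7 d IR replicate 47 or 2 d IR replicate 73; that of C10h16orf89 was lost without 2 d IR replicate 69 as well. On the 6 sham arrays alone neither passed (adjusted p = 0.214 for Dmbt1 and 0.101 for C10h16orf89). Dmbt1 was also lost with an offset of 500 (limma adjusted p = 0.0588) and after quantile normalization (0.0517). C10h16orf89 was also lost with an offset of 16 (0.0526), dim probe sets kept (0.104) and a filter at the 60th percentile (0.0513). Quantile normalization (0.0550) and no intensity trend (0.0781) lost it as well. Adjusted p ranged over the alternatives from 0.00978 to 0.232 for Dmbt1 and from 0.0230 to 0.212 for C10h16orf89.

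The other increases called were on probe sets that stand less clearly for a gene. Marcks, a membrane-bound substrate of protein kinase C that binds actin, was read by 5 tested probe sets. One probe set of Marcks went from 805, 738 and 821 to 1660, 2277 and 1640 and was called (1.05, SE 0.17, limma adjusted p = 0.0330). The brightest probe set of Marcks went from 2009, 899 and 1460 to 3079, 3100 and 2334 without overlap and did not pass (0.92, SE 0.23, adjusted p = 0.182), and the changes of the other 3 were 0.20, 0.73 and 1.09. A probe set that the platform annotation gives to several genes, and which is therefore not named, went from 451, 545 and 956 to 4694, 4311 and 2160 (2.19, SE 0.32, adjusted p = 0.0216).

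Rpl37a, which encodes a small protein of the ribosome, fell with the smallest p of all probe sets. Its signal was 39104, 52874 and 55717 at 2 d and 16521, 13612 and 13025 at 7 d. The groups were far apart, and the 2 d level of 49232 ± 8885 (SD, n = 3) stood against 14386 ± 1872 at 7 d. Rpl37a was 3.37-fold lower at 7 d (-1.75, SE 0.15, limma adjusted p = 7.67e-05) and was called in 23 of 23 alternatives. Ribosomal protein genes have near-identical copies elsewhere in mammalian genomes, and whether the probes of Rpl37a also read such copies was not tested.

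Ptgds, the enzyme that makes prostaglandin D and that also carries small lipids, had signals of 1969, 1702 and 1146 at 2 d and of 587, 532 and 399 at 7 d. All 7 d arrays lay below all 2 d arrays, and Ptgds fell 2.54-fold (-1.34, SE 0.22, limma adjusted p = 0.0330). The call of Ptgds was lost without 7 d replicate 80 or 81 or 2 d replicate 71 or 72 (limma adjusted p 0.0817 to 0.212). It was lost without 7 d IR replicate 47 (0.0557) or 2 d IR replicate 73 (0.0606) as well. Ptgds also did not pass with dim probe sets kept (0.0970), a filter at the 60th percentile (0.0513) or no intensity trend (0.0781). Its adjusted p ranged from 0.0213 to 0.212.

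**Figure D2:**
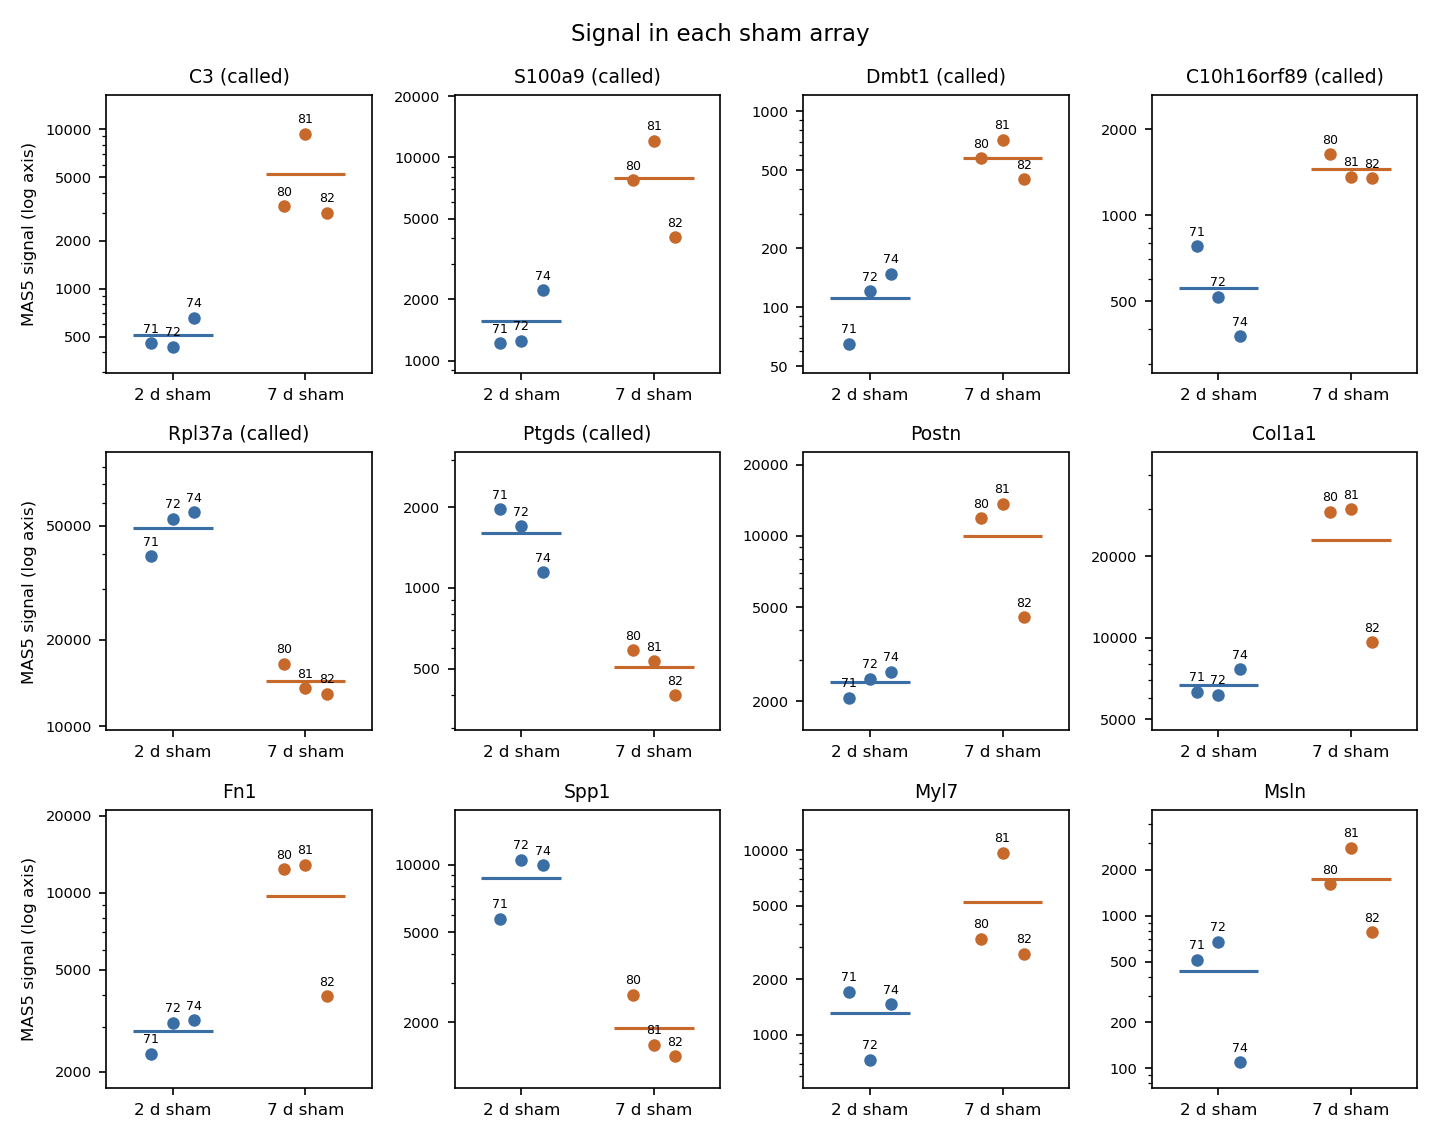
MAS5 signal (vertical axes, log scale, each panel with its own range) of 12 genes in the 3 arrays of 2 d sham (blue) and the 3 of 7 d sham (orange); each point is an array with its replicate number and each bar is the mean of 3 arrays. The 6 called genes do not overlap between the days, as with 454 to 656 against 2999 to 9357 for C3, while replicate 82 sits close to the 2 d arrays for Postn, Col1a1 and Fn1.

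The promoters of the 2 largest called increases and the 2 largest called decreases with a single gene name are shown for the letters that lie before their starts. They are RefSeq sequences of build GRCr8, from 250 bases before to 50 bases after the start, written 5′ to 3′ on the gene's strand, and capitals mark matches to the motifs named below. C3 lies at chr9:2201290-2201589 on the minus strand, S100a9 at chr2:178490573-178490872 on the minus strand, Rpl37a at chr9:81747841-81748140 on the plus strand and Ptgds at chr3:28682929-28683228 on the minus strand.
C3: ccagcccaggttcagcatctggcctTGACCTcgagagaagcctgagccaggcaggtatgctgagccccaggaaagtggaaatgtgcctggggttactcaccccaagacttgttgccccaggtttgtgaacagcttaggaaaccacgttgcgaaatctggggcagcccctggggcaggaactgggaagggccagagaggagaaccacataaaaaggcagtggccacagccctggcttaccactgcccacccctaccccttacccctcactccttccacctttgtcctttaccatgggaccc
S100a9: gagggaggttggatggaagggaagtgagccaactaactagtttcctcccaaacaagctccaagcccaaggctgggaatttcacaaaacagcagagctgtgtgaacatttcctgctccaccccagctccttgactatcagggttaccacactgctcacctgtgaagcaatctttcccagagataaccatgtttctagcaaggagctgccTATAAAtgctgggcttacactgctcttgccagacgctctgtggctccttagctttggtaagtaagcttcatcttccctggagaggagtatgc
Rpl37a: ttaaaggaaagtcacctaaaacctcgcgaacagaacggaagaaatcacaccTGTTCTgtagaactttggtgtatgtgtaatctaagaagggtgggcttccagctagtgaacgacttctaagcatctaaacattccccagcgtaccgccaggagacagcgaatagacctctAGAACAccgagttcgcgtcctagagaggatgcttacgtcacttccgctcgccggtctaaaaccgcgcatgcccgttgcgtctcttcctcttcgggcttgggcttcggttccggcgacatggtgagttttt
Ptgds: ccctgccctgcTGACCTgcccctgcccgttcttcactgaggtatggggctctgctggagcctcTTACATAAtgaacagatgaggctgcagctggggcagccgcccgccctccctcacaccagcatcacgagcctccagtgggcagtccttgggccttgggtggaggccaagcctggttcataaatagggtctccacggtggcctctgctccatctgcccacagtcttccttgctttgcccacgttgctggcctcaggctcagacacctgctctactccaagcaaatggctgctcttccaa

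Of 8 motifs searched on both strands, 4 matched in these promoters and no matches overlapped. The ROR element was searched only by its core letters AGGTCA, which are not particular to the ROR and REV-ERB clock receptors. AGGTCA occurred in the promoters of C3 (bases -225 to -220) and Ptgds (-239 to -234), and 16.2% of 33469 promoters in the same table hold it. Ptgds also held a D-box, TTATGTAA (-187 to -180), found in 0.893% of promoters. S100a9 held a TATA box, TATAAA (-42 to -37), found in 14.2%. Rpl37a held TGTTCT, a part of the glucocorticoid element, at -199 to -194 and at -80 to -75, and 20.7% of promoters hold it. The E-box CACGTG (6.42% of promoters), the cyclic AMP element TGACGTCA (1.83%), the interferon element GAAANNGAA (9.71%) and the AP-1 element TGANTCA (7.33%) did not occur in these 4 windows. A match describes letters, not a bound site.

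Genes of the acute phase and complement leaned higher at 7 d. Of 26 tested, 1 (C3) was called higher and 0 lower. At an unadjusted p under 0.05, 10 had a positive change and 1 a negative one. All 7 d arrays lay above all 2 d arrays for 8 and below for 0, against 7.45% and 7.24% of all genes. The median change was 0.36. Lbp, which binds bacterial lipopolysaccharide, had signals of 780, 331 and 892 at 2 d and of 3139, 4954 and 1466 at 7 d. Lbp was higher in each 7 d array than in any 2 d array and did not pass (1.89, SE 0.42, limma adjusted p = 0.137; without replicate 82 it passed at 2.33, adjusted p = 0.0181). Serping1, the inhibitor of the first complement enzymes, went from 6205, 4444 and 6505 to 11388, 15298 and 8803 (1.01, adjusted p = 0.0920).

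The first complement complex is built from the C1q chains and the proteases C1r and C1s. Changes were 1.01 for C1qa (adjusted p = 0.137), 0.92 for C1r (0.201) and 0.82 for C1s (0.137), and 0.83 for Cfd, the protease factor D of the alternative pathway (0.206). None of these passed with limma over all arrays, and the days did not overlap for C1qa, C1r, C1s or Cfd. Without replicate 82, 6 of the 26 members were called higher, against 0.674% of all genes called higher in that fit. Among the 6 were Serping1 (1.20, limma adjusted p = 0.00978), C1qa (1.22, 0.0201), C1s (0.98, 0.0282) and Cfd (1.03, 0.0432). The median of the list was then 0.58. Without replicate 80 or 81 instead, 1 and 0 members were called and the medians were 0.30 and 0.32. Not every member moved this way. Over all arrays 21 of the 26 changes were positive and 5 negative, the lowest at -1.08. Lcn2, the iron-binding neutrophil gelatinase-associated lipocalin, was uneven at 7 d. It had 30684 on replicate 81 but 6846 and 5356 on replicates 80 and 82, within or below its 2 d range of 6644 to 10082. The change of Lcn2 was 0.32 (SE 0.57, adjusted p = 0.881) and turned to -0.44 without replicate 81.

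Of 7 neutrophil markers on the array, 3 were bright enough to be tested (S100a9, S100a8 and Lcn2). The summed signal of all 7 was 8851 to 12244 at 2 d. At 7 d it was 10616, 16777 and 46364 on replicates 82, 80 and 81, and the groups overlapped. The untested neutrophil markers stayed dim in all sham arrays, with highest signals of 250.4 for Np4, 323 for Mmp9, 375 for Mmp8 and 430.5 for Cxcr2. S100a9 and S100a8 are also made by monocytes, and the part of either cell type in the result was not tested. Macrophage and monocyte markers gave 0 of 23 called. At an unadjusted p under 0.05 in limma 4 were higher and 1 lower, against 5.47% and 4.22% of all genes. Without overlap 0 lay above and 0 below, against 7.45% and 7.24% of all genes, which is few genes in a list of this size. The median change of these markers was 0.18, with list means of 0.39 and 0.29 on replicates 80 and 81 and -0.25 on replicate 82.

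Among 33 cytokines, chemokines and receptors tested, 0 were called in limma's test, 8 had an unadjusted p under 0.05 and higher signals against 1 with lower, and the median change was 0.29. Cxcl13, which attracts B cells, went from 545, 411 and 534 to 1905, 5684 and 1957. The days were apart for Cxcl13 and replicate 81 was again the highest (2.12, SE 0.43, adjusted p = 0.112); it passed without replicate 82 (2.35, adjusted p = 0.0344). Il6, the cytokine that drives the acute phase response of the liver, was at 31.6, 155 and 45.2 and then at 662, 857 and 130. Il6 was above its 2 d range on replicates 80 and 81 only, and its groups overlapped (1.31, SE 0.50, limma adjusted p = 0.424). It was above the filter for dim probe sets on 0 of the sham arrays at 2 d and 2 at 7 d. Among IR arrays this held for 2 at 2 d and 1 at 7 d. Cxcl12, a chemokine of stromal cells, had the highest mean signal of the uncalled members and differed by 0.35 (adjusted p = 0.466). The 2 dimmer probe sets of Cxcl12 had larger differences of 0.85 (SE 0.27, adjusted p = 0.308) and 0.92 (SE 0.34, adjusted p = 0.412), and the days overlapped on all 3.

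Spp1, which encodes osteopontin, a matrix protein and cytokine of macrophages and injured tissue, had the largest negative change. Its signal was 5748, 10515 and 9907 at 2 d and 2647, 1589 and 1416 at 7 d. The lowest 2 d array was above the highest 7 d array, and the mean went from 8723 ± 2595 to 1884 ± 667 (SD, n = 3). Spp1 did not pass in the fit over 12 arrays (-2.10, SE 0.53, limma adjusted p = 0.196). Fitted on the 6 sham arrays alone it did (adjusted p = 0.0266), and also without 7 d IR replicate 48 (0.0273), over a range of 0.0266 to 0.512 in 23 alternatives. RT1-Da, a class II chain that presents antigen, went the other way, from 3896, 4410 and 7264 to 12458, 10695 and 9540, with no overlap (1.08, SE 0.25, adjusted p = 0.149). The genes of interferon response and antigen presentation, RT1-Da among them, showed no common direction. Of 34 tested, 0 were called, 18 changes were positive and 16 negative, and the median was 0.0081. At an unadjusted p under 0.05 in limma 5 were higher and 1 lower, against 5.47% and 4.22% of all genes.

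Matrix genes were higher on 2 of the 3 arrays at 7 d. Of 16 collagens tested, 15 had a positive change, and the median change was 0.50. All 7 d arrays lay above all 2 d arrays for 4 and below for 0, against 7.45% and 7.24% of all genes. By limma 0 were called, and 9 were higher and 0 lower at an unadjusted p under 0.05. Col1a1, a chain of type I collagen, had signals of 6326, 6152 and 7659 at 2 d and of 29243, 29766 and 9642 at 7 d. Replicates 80 and 81 of Col1a1 were far above the 2 d arrays and replicate 82 lay just above them (1.58, SE 0.33, adjusted p = 0.112). Col3a1, a chain of type III collagen, went from 16292, 19453 and 20576 to 37977, 37748 and 21435 (0.74, SE 0.19, adjusted p = 0.194). Col1a2, the other chain of type I collagen, was at 25950 and 20451 on replicates 80 and 81 and at 8140 on replicate 82, within its 2 d range of 6260 to 9051 (1.07, adjusted p = 0.292). Col14a1, a collagen that binds fibril surfaces, was the most even, at 1907, 1517 and 1968 and then at 4298, 3976 and 3268 (1.02, SE 0.19, adjusted p = 0.0752); its other tested probe set differed by 0.39 (adjusted p = 0.477).

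Without replicate 82, 8 of the 16 collagens were called higher and 0 lower, against 0.674% of all genes called higher in that fit, and their median change was 0.77. Col1a1 was then at 2.11 (adjusted p = 0.000147), Col1a2 at 1.56 (0.00597), Col3a1 at 1.01 (0.00288) and Col14a1 at 1.13 (0.0229). Without replicate 80 or 81 instead, 0 of the 16 were called and the medians were 0.36 and 0.40. Col1a1 was then at 1.32 and 1.31 (adjusted p = 0.339 and 0.468), Col1a2 at 0.74 and 0.91 (0.671 and 0.670) and Col3a1 at 0.60 and 0.61 (0.465 and 0.538). As replicate 82 has the lowest collagen mean at 7 d, the calls without it follow from which array was left out. The mean of the collagen list over its members, set against the 2 d mean, was 0.87 and 0.74 on replicates 80 and 81 and 0.086 on replicate 82, which lay within the 2 d range of -0.15 to 0.14. The collagen processing enzymes had a median change of 0.16, with 0 of 14 called. At an unadjusted p under 0.05 in limma 2 were higher and 0 lower, against 5.47% and 4.22% of all genes. Without overlap 0 lay above and 0 below, against 7.45% and 7.24% of all genes.

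Glycoproteins and proteoglycans of the matrix had a median change of 0.30 over 31 tested. By limma 0 were called, and 10 were higher and 0 lower at an unadjusted p under 0.05. Without overlap 6 lay above and 0 below, against 7.45% and 7.24% of all genes. Postn, the fibroblast matrix protein periostin, went from 2068, 2492 and 2664 to 11856, 13655 and 4520. Replicate 82 of Postn was above all 2 d arrays but well below replicates 80 and 81, and the change of 1.83 (SE 0.32) had an adjusted p of 0.0527 by limma. Postn was called in 5 of 23 alternatives, among them without replicate 82 (2.32, adjusted p = 0.000147) and without 2 d IR replicate 69 (0.0395), and had an adjusted p of up to 0.262. Fn1, which encodes fibronectin, went from 2354, 3115 and 3179 to 12362, 12899 and 3940 (1.53, SE 0.33, adjusted p = 0.137) and Lum, a collagen-binding proteoglycan, from 7591, 5503 and 5975 to 14402, 14354 and 8452 (0.92, SE 0.19, adjusted p = 0.112). Both passed without replicate 82, Fn1 at 2.07 (adjusted p = 0.000147) and Lum at 1.17 (0.00229), while without replicate 80 or 81 Fn1 was at 1.27 and 1.24 (0.393 and 0.474) and Lum at 0.79 in both fits (0.335 and 0.468). Dcn, the proteoglycan decorin, had the highest mean signal of the list and moved little, at 31458, 31402 and 33966 and then at 32866, 38353 and 35238 (0.13, adjusted p = 0.694).

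Of 14 matrix proteases and inhibitors tested, 0 were called, 4 were higher and 1 lower at an unadjusted p under 0.05, and the median change was 0.39. Mmp14, a membrane-bound matrix metalloproteinase, went from 917, 949 and 1586 to 5718, 5406 and 1906. Its replicate 82 lay above the 2 d arrays by the least (1.65, SE 0.31, limma adjusted p = 0.0762), and without it Mmp14 passed (2.13, adjusted p = 0.000147), as it did not without replicate 80 or 81 (1.38 and 1.42, adjusted p = 0.272 and 0.330). For Mmp2, the gelatinase that Mmp14 activates, the groups overlapped through replicate 82 (0.71, adjusted p = 0.291), and without that array it passed as well (1.03, adjusted p = 0.00876). The other tested probe set of Mmp2 differed by 0.097 (adjusted p = 0.908). Timp1, an inhibitor of these proteases, was 12380 and 11656 on replicates 80 and 81 and 2704 on replicate 82, below all of its 2 d arrays at 3523 to 4737 (0.78, SE 0.47, adjusted p = 0.620).

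Fibroblast markers, 14 of 20 of which are also on another list, had a median change of 0.49. Without overlap 7 lay above and 0 below, against 7.45% and 7.24% of all genes. By limma 0 of these markers were called, and 9 were higher and 0 lower at an unadjusted p under 0.05. Their summed signal was 147889 to 164921 at 2 d and 256220, 252527 and 162270 on replicates 80, 81 and 82, so that replicate 82 lay within the 2 d range. Without replicate 82, 8 of the 20 were called higher and 0 lower, against 0.674% of all genes called higher in that fit. Without replicate 80 or 81 instead, 0 were called (medians 0.29 and 0.24).

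Among growth factors and secreted modulators, Igf1, Ptn and Sfrp2 had their lowest 7 d signal on replicate 82. For Ptn replicates 81 and 82 were close, at 1410 and 1209 against 2280 on replicate 80. Igf1, insulin-like growth factor I, went from 3450, 3540 and 3150 to 7111, 10484 and 4301 without overlap (0.98, SE 0.25, limma adjusted p = 0.193; without replicate 82, 1.31, adjusted p = 0.00876). Ptn, the heparin-binding growth factor pleiotrophin, changed by 1.13 (SE 0.25, adjusted p = 0.137) and Sfrp2, a secreted Wnt modulator, by 1.30 (SE 0.29, adjusted p = 0.137). Neither overlapped between the days, and without replicate 82 both passed, Ptn at 1.30 (adjusted p = 0.0432) and Sfrp2 at 1.72 (0.00132). Of 30 growth factors and receptors tested, 7 lay above and 1 below without overlap (median 0.16). Of 37 genes of the TGF-beta, BMP and Wnt pathways it was 7 above and 1 below (median 0.18). Over all genes the shares were 7.45% above and 7.24% below. In neither list was a gene called with limma. At an unadjusted p under 0.05 the counts were 7 higher and 0 lower, and 4 higher and 1 lower. Also called higher without replicate 82 were C1qtnf6, a secreted C1q-like protein (1.12, adjusted p = 0.00276), and Vcam1, an adhesion molecule of activated endothelium (1.14, 0.0299), which over all arrays had changes of 0.90 (adjusted p = 0.0920) and 0.90 (0.193).

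**Figure D3:**
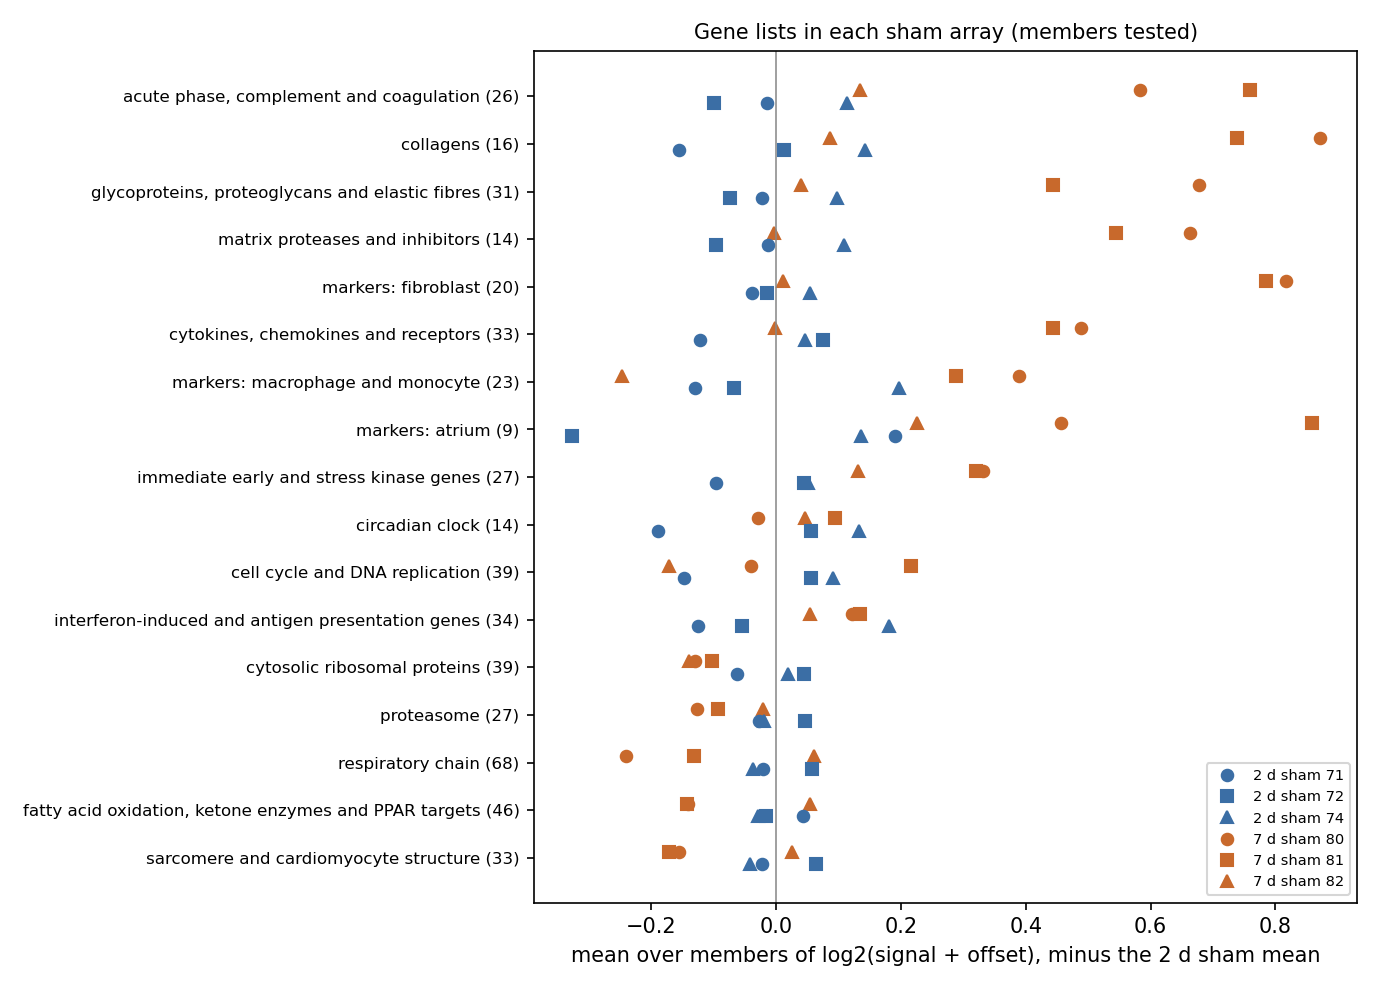
Mean over the tested members of 17 gene lists of log2(signal + offset), set against the mean of the 2 d sham arrays (horizontal axis), with 1 point per sham array (2 d blue, 7 d orange, symbols by replicate) and the number tested in brackets. For collagens, 7 d replicates 80 and 81 stand at 0.87 and 0.74, while replicate 82 stands at 0.086, within the 2 d range.

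Some genes of atrial muscle and of the heart's outer lining were also higher on some 7 d arrays. Myl7, the atrial regulatory light chain of myosin, had signals of 1716, 734 and 1472 at 2 d and of 3323, 9699 and 2756 at 7 d. Replicate 81 of Myl7 was far above the other arrays, and the days did not overlap (1.71, SE 0.50, limma adjusted p = 0.267). Myl4, the atrial essential light chain, was at 902, 551 and 1118 and then at 2345, 4792 and 1271 (1.37, adjusted p = 0.301), and Sln, the atrial regulator of the calcium pump, was highest on replicate 81 at 3242, against 958 and 993 on replicates 80 and 82 (1.12, adjusted p = 0.450). Nppa, the atrial natriuretic peptide, which stressed ventricle also makes, overlapped (0.46, adjusted p = 0.589). Of 9 atrial markers tested, 6 had a positive and 3 a negative change, from -0.39 to 1.71. By limma 0 were called, and 3 were higher and 0 lower at an unadjusted p under 0.05. Without overlap 2 lay above and 0 below, against 7.45% and 7.24% of all genes. The summed signal of the 9 markers was 27373 to 50491 at 2 d and 47947 to 64246 at 7 d.

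Msln, mesothelin of the epicardial and pericardial surface, went from 517, 678 and 109 to 1610, 2804 and 783. The days of Msln were apart with replicate 82 nearest to the 2 d arrays (1.60, SE 0.43, limma adjusted p = 0.226; without replicate 82, 2.02, adjusted p = 0.0432). Of 10 markers of mesothelium and epicardium on the array, 4 were tested, with a median change of 0.29. By limma 0 were called, and 1 was higher and 0 lower at an unadjusted p under 0.05. The summed signal of all 10, tested or not, was 5683 to 6161 at 2 d and 6378 to 8363 at 7 d. The keratins Krt7, Krt8, Krt18 and Krt19 of that lining were dim, with highest sham signals of 587, 275, 447 and 378. Replicate 81, highest for C3, S100a9, Cxcl13 and Lbp, was thus also highest for Myl7, Myl4 and Msln, and the part of atrial or epicardial tissue in these results was not tested.

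The RNA of the groups differed in a measure of integrity. The log2 ratio of the signal at the 3′ end to that at the 5′ end of Actb, which grows when RNA is broken or copied short, was 0.31, 0.17 and 0.13 at 2 d and 0.52, 0.83 and 0.39 at 7 d. The groups did not overlap and differed by 0.38 (exact two-sided permutation test, p = 0.10, the smallest that 3 against 3 arrays can give). The same ratio for Gapdh differed by 0.12 (exact p = 0.20) and that for the hexokinase control by -0.30 (exact p = 0.40), with overlap in both. Replicate 81 had the highest ratio for Actb, and the part of RNA integrity in the results was not tested.

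Most genes of muscle contraction and energy supply had small differences between the days. Of 33 sarcomere and structural genes tested, 28 had a negative change, and the median was -0.10. Without overlap 5 lay below and 0 above, against 7.24% and 7.45% of all genes. By limma 0 were called, and 0 were higher and 2 lower at an unadjusted p under 0.05. Tnni3, cardiac troponin I, went from 76259, 90743 and 77548 to 64986, 68523 and 72521, with no overlap (-0.24, SE 0.11, adjusted p = 0.527). Myh6 and Myh7, the fast and slow heavy chains of cardiac myosin, had changes of 0.16 (adjusted p = 0.805) and -0.11 (0.789) on their brightest probe sets, both with overlap. The other tested probe set of Myh6 was dimmer, went from a mean signal of 5249 to 9717 without overlap and did not pass (0.85, SE 0.22, unadjusted p = 0.00152, limma adjusted p = 0.202), and that of Myh7 differed by -0.30 (adjusted p = 0.721). Signals of these 3 sarcomere genes were high in all 6 arrays, as for heart muscle. Nppb, the B-type natriuretic peptide of stressed ventricle, changed by 0.48 (adjusted p = 0.493). Ryr2, the calcium release channel, was at 3820, 4026 and 3371 and then at 2943, 1451 and 2544, without overlap (-0.70, SE 0.28, adjusted p = 0.450).

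Of 68 respiratory chain genes tested 53 had a negative change, with a median of -0.13, and of 46 genes of fatty acid oxidation 34, with a median of -0.15. In both lists 0 were called with limma over all arrays; at an unadjusted p under 0.05 the counts were 0 higher and 2 lower in the respiratory chain, and 4 higher and 6 lower in fatty acid oxidation. Atp5f1b, a subunit of ATP synthase, changed by -0.16 (adjusted p = 0.678), Fabp3, the fatty acid carrier of heart muscle, by -0.16 (0.730) and Acadm, a dehydrogenase of fatty acid oxidation, by 0.13 (0.800), all with overlap. List means on replicate 82 were 0.060 for the respiratory chain and 0.054 for fatty acid oxidation, against -0.24 and -0.13, and -0.14 and -0.14, on replicates 80 and 81. Called lower without replicate 82 were Slc27a1, a transporter of long-chain fatty acids (-0.68, adjusted p = 0.0491), and Pdp1, the phosphatase that switches on pyruvate dehydrogenase (-0.69, adjusted p = 0.0342). Over all arrays Slc27a1 had a change of -0.49 (adjusted p = 0.328) and Pdp1 of -0.60 (0.137), and for both all 7 d arrays lay below all 2 d arrays.

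Other cytosolic ribosomal proteins did not move as Rpl37a did. Of 39 tested, 1 (Rpl37a) was called lower and 0 higher, and the median change was -0.087. Without overlap 6 lay below and 0 above, against 7.24% and 7.45% of all genes. Rpl7a, with a high signal, changed by -0.18 (SE 0.10, limma adjusted p = 0.602). Of 27 proteasome subunits, 6 lay below and 1 above without overlap, beside the same shares of all genes, and the median was -0.14. By limma 0 were called, and 1 was higher and 4 lower at an unadjusted p under 0.05. Psma6, a subunit of the core, went from 17103, 16657 and 18265 to 14488, 14826 and 15076 (-0.23, SE 0.096, limma adjusted p = 0.487).

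Immediate early and stress kinase genes, which respond within minutes to handling and injury, had a median change of 0.24, and 25 of 27 changes were positive. Of the 27, 6 lay above and 0 below without overlap, against 7.45% and 7.24% of all genes. By limma 0 were called, and 6 were higher and 0 lower at an unadjusted p under 0.05. Egr1, a transcription factor of this class, went from 658, 1068 and 640 to 1724, 1475 and 1146 (0.75, SE 0.24, adjusted p = 0.328), while Klf2 and Btg1, with the highest mean signals of the list, changed by 0.24 (adjusted p = 0.602) and 0.084 (0.840) with overlap. Clock genes showed no common direction, with 7 of 14 changes positive, a median of -0.0034 and 0 called (1 higher and 0 lower at an unadjusted p under 0.05). Bmal1, the clock activator, was at 496, 608 and 506 and then at 903, 673 and 712, without overlap (0.38, SE 0.18, adjusted p = 0.525). Cell cycle and DNA replication genes were as even, with 20 of 39 changes positive, a median of 0.030 and 0 called (3 higher and 2 lower at an unadjusted p under 0.05).

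The remaining decreases without overlap that were largest, beside Spp1, did not pass. Reg3b, a secreted lectin of regeneration and defence, was bright in all 6 arrays, at 35440, 40217 and 25464 and then at 20587, 23203 and 9232. The days of Reg3b were apart by little beside the spread within them (-1.004, SE 0.47, limma adjusted p = 0.528). C18h5orf63 (-0.96), Rcor2, a corepressor (-0.96), Ncoa3, a nuclear receptor coactivator (-0.94), Zfp444, a zinc finger protein (-0.86), Ttc23 (-0.83) and Dusp23, a phosphatase (-0.81), had adjusted p of 0.112 to 0.351. Of these, Ttc23 had the smallest p and passed without replicate 82 (-1.01, limma adjusted p = 0.00978). Rcor2 was above the filter for dim probe sets on 3 arrays of 2 d sham and on 0 of each other group. Rcor2 was thus tested only through the arrays where it is high. Its p and its place among the largest decreases are therefore not independent of the filter.

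The change between the same days in the IR hearts, whose group means share no array with those of the sham comparison, was set beside it. In IR hearts 363 of 10527 probe sets were called (3.45%), 258 higher (2.45%) and 105 lower (0.997%) at 7 d. Of the 575 genes that lay above without overlap in sham, 405 (70.4%) had a positive change in IR hearts, against 46.7% of all genes, and 70 were called higher there, against 2.62% of all genes. Of the 559 that lay below, 415 had a negative change and 24 were called lower, against 1.14% of all genes. The changes in sham and IR correlated over the 7720 genes at a Pearson r of 0.41 and a Spearman rho of 0.32; genes are not independent replicates, and the 2 comparisons share the scaling and the probes.

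C3 changed by 2.75 in sham and 2.69 in IR hearts (limma adjusted p = 0.00179 in IR), S100a9 by 2.13 and 1.53 (0.0233) and Dmbt1 by 1.33 and 1.00 (0.0174). As Dmbt1 was tested only through the 7 d arrays, sham and IR, its p in IR hearts is not independent of the filter either. Among genes that did not pass in sham, the changes in sham and IR were 1.83 and 2.08 for Postn (adjusted p = 0.00232 in IR), 1.58 and 1.88 for Col1a1 (0.00467), 1.89 and 2.75 for Lbp (0.00232) and -2.10 and -2.996 for Spp1 (0.00540). For none of these 7 genes did the difference between the 2 changes pass (adjusted p 0.814 to 0.990). C10h16orf89 rose in sham and had a negative change in IR hearts (-0.46, adjusted p = 0.248), and that difference of -1.61 did not pass either (0.151). Collagens had a median change of 0.99 in IR hearts with 11 of 16 called higher, fibroblast markers 1.16 with 12 of 20, and acute phase and complement genes 0.16 with 10 of 26. Of all genes, 2.62% were called higher in IR hearts.

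**Figure D4:**
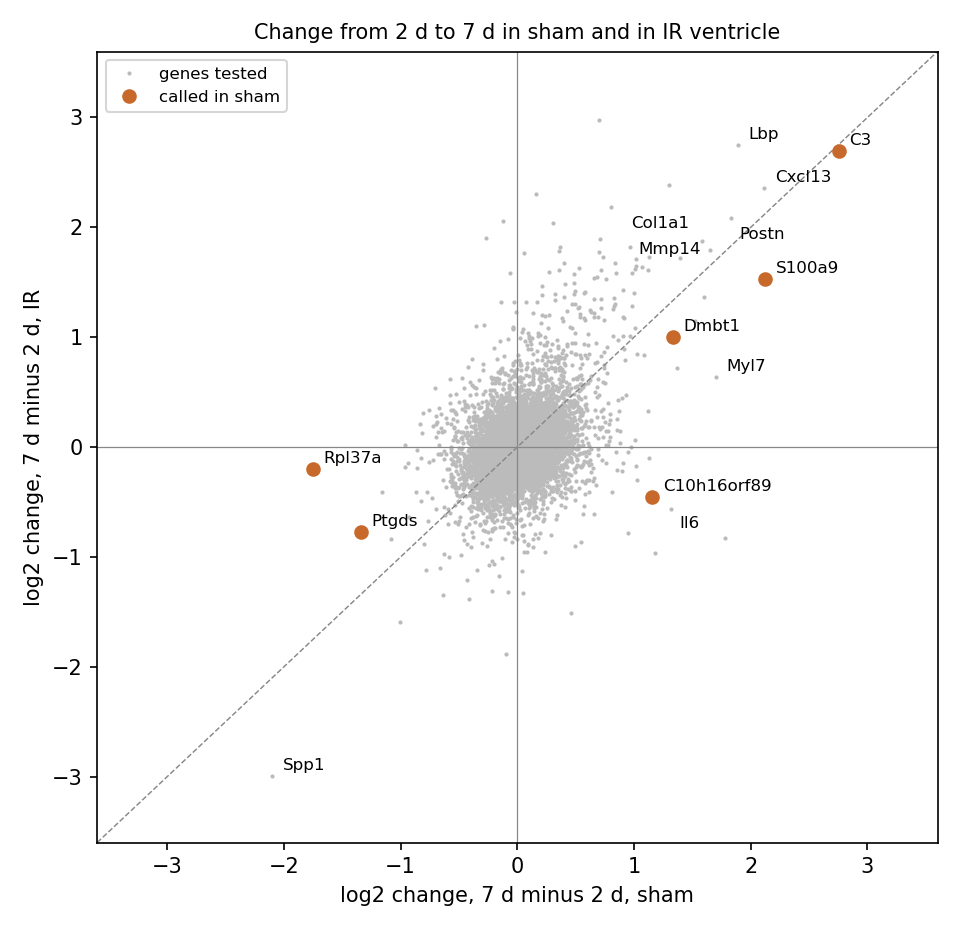
Change from 2 d to 7 d on the log2(signal + offset) scale in sham (horizontal axis) and in IR ventricle (vertical axis) for 7720 genes, each from 3 against 3 arrays; orange points are the 6 genes called in sham and the dashed line marks equal changes. C3 lies near that line at 2.75 and 2.69, and Rpl37a lies off it at -1.75 and -0.20.

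Over all probe sets, 1 (0.0095%) passed for the difference between the IR and sham changes, and 752 (7.14%) had an unadjusted p under 0.05. That one was Rpl37a. In IR hearts its signal was 17841, 20270 and 20756 at 2 d and 18396, 14127 and 18857 at 7 d (-0.20, limma adjusted p = 0.565), so that the 2 d sham arrays, at 39104 to 55717, lay above the other 9 arrays, at 13025 to 20756. The difference was 1.55 (SE 0.21, adjusted p = 0.0287). It passed in 10 of 22 alternatives, with a value of 1.42 to 1.71 and an adjusted p of 0.00654 to 0.205, and was lost without 7 d IR replicate 44 or 48, any 2 d IR array, 7 d sham replicate 81 or 82, or 2 d sham replicate 72 or 74.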

How the data were processed

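Total RNA of 12 rat ventricles was read on 12 arrays, 3 per group. The deposited values are the authors' MAS5 signals, a linear intensity for each probe set, as the submitters' processing notes name the tool without a version; no detection calls were used. Trimmed means of 1499 to 1500 per array (2% left out at each end) show a common scaling. The number of arrays limits the precision. Groups came from the sample titles, because the written design names the 7 d sham rats on 2 of its 4 lines and leaves out those of 2 d. No replicate numbers are shared between groups, the labels name no batch, and the rat numbers of the sham groups do not overlap, so that a batch and the day cannot be told apart.

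Values were log2(signal + offset), with the offset given in the report. Leaving out 57 controls among 15923 probe sets, 10527 lay above the 40th percentile of their array in at least 3 of 12 arrays. Symbols came from GEO's platform annotation, where 12789 probe sets have 1, 312 several and 2822 none; 12754 matched the RefSeq table of GRCr8. A gene was read through its brightest probe set by mean log2 signal over the 12 arrays. Group means over 12 arrays were modelled by limma (version 3.58.1, under R 4.3.3; lmFit, contrasts.fit, eBayes with trend), two-sided, with Benjamini-Hochberg adjustment over 10527 probe sets, and checked on simulated data. SE is limma's moderated standard error.

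Genes named were those called, filled up to 10 each way by the largest changes without overlap between days; per list up to 4 called members and up to 2 uncalled ones with the highest mean signal; and called genes set beside IR. Marcks, C1qa, C1r, C1s, Cfd, Col1a2, Col14a1, Fn1, Mmp2, Igf1, Ptn, Sfrp2, C1qtnf6, Vcam1, Il6, RT1-Da, Myl4, Sln, Nppb, Myh6, Ryr2, Slc27a1, Pdp1, Egr1 and Bmal1 fall outside this rule and were chosen after their values were seen. The comparison, the 29 gene lists and the 15 marker lists were chosen with earlier results of these data known, and lists are described by counts and medians without a test. On the lists not described above, 0 genes were called other than S100a9, which 3 lists hold. Alternatives were offsets of 16 and 500, other filters, median centring, quantile normalization, no trend, array weights, the 6 sham arrays alone, and leaving out each array or replicates 69 and 82 together.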

Additional observations from a re-analysis of the deposited data

Results flagged for a closer look

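The change of Rpl37a from 2 d to 7 d differed between IR and sham hearts: the IR change minus the sham change was 1.55 on the log2(signal + offset) scale (limma adjusted p = 0.0287). It stood out because the test of the difference itself passed, which it did for no other probe set. The 3 arrays of 2 d sham were high (39104 to 55717) and those of the other groups lay at 13025 to 20756.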

How the results depend on the processing

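For 7 d against 2 d sham, limma called 8 probe sets, which became 1 when dim probe sets were kept, 5 with a filter at the 60th percentile, 4 after quantile normalization (2 higher and 2 lower, against 6 and 2), 2 without an intensity trend, 25 with array quality weights and 83 with replicates 69 and 82 left out together; with each array left out it was 1 to 76. On the 6 sham arrays alone it was 8, with 4 higher and 4 lower; 5 of these are among the 8 called with all arrays, and S100a9, Dmbt1 and C10h16orf89 are not. For IR the count of 363 became 577 with weights, 556 without replicates 69 and 82, and 192 to 439 with each array left out. For the difference the count of 1 became 3 with weights, 0 with dim probe sets kept, without a trend or without replicates 69 and 82 (1092, 746 and 831 at an unadjusted p under 0.05), and 0 to 6 with each array left out. Rpl37a was called for the sham change in 23 of 23 alternatives, C3 in 18, Ptgds in 14, S100a9 in 13, and Dmbt1 in 10 of 21 and C10h16orf89 in 10 of 23. The 6 called genes kept their direction in all of these. Among the 64 genes followed, the only change of sign was that of Lcn2, which ranged from -0.44 without 7 d sham replicate 81 to 0.79 without replicate 82. 25 of the 64 genes followed passed without replicate 82 and not with all arrays, and their adjusted p ranged from 1.6e-05 to 0.734 over the alternatives. The cause of these shifts was not tested, except that fewer arrays enter a fit that leaves some out. The 16 other tested probe sets of 10 followed genes all changed in the same direction as the one that stands for the gene, though not by the same size. List medians near 0, among them those of the clock (-0.074 to 0.085), cell cycle (-0.057 to 0.13) and interferon genes (-0.035 to 0.12), changed sign between alternatives, while those of the collagens, complement and fibroblast markers did not.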
